A study of Homo sapiens with 24 samples.

Results

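The 10 core circadian clock genes were followed through 24 libraries of nascent transcription from luminal breast cancer cells. The members were taken by symbol from the gene count table: the activators CLOCK and BMAL1, the repressors PER1, PER2, PER3, CRY1 and CRY2, the nuclear receptors NR1D1 and NR1D2, and the output factor DBP. All 10 were found among the 60605 genes of the table, of which 60463 carry an annotated symbol, and all 10 were among the 22326 genes that passed the filter on low counts. PRO-seq, which sequences RNA from the sites of engaged RNA polymerase, was applied to T47D, an estrogen receptor positive line. Every library came from T47D cells whose endogenous TRPS1 carries a dTAG degron, in 3 lines named Clone 28, Clone 35 and Clone 39. Each line is a single clone in which only tagged TRPS1 protein is made, the other copies of the gene having been knocked out, and all 3 descend from 1 puromycin-selected parent clone, so no line with untagged TRPS1 stands beside them. Per the study's methods, cells were grown in medium with serum and plated 1 day before harvest. Each clone was given 0.1% DMSO, the vehicle, or 100 nM dTAG-13, the degrader, for 90 minutes, which makes 6 groups of 4 libraries. A replicate number stands for 1 of 4 rounds of treatment and harvest, all run on 1 day but not at once, and the DMSO and dTAG-13 dishes of a replicate were harvested together. Neither the clock times nor their order is given, so the replicate number was treated as an unordered label. Whether a replicate number marks the same time in each clone is not given either. Fits of replicate number over the 3 clones together give each number 1 effect shared by the clones. They thus take the numbers to correspond across clones, which is not known. The dishes are not stated to be independent cultures, so p-values measure the spread between these libraries.

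The mammalian clock is a feedback loop of transcription that takes about a day. A dimer of CLOCK and BMAL1 binds E-box DNA and drives the PER and CRY genes, whose proteins return to the nucleus and block that dimer. The REV-ERB receptors, encoded by NR1D1 and NR1D2, repress BMAL1 in a second loop, and DBP binds D-box DNA at PER genes and at output genes. Cells in culture keep the loop running, but without a shared time cue their rhythms drift apart from cell to cell. Whether the cells of these dishes shared such a cue was not tested.

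The sites by which these factors act can be looked for in the members' own promoters. Reference sequence from RefSeq (GRCh38.p14) was available for all 10 members, and the 250 bases before each RefSeq start were searched on both strands. For 7 members that start is also the start of the gene as counted, whereas for PER1, PER2 and BMAL1 it lies 4102, 1492 and 1138 bases downstream, so their windows lie within the gene as counted. The words were CACGTG for the E-box, CACGTT for the related E'-box, TTATGTAA or TTACGTAA for the D-box, TAGGTCA or TGGGTCA for the element shared by ROR and REV-ERB receptors, TGACGTCA for the cAMP response element, and, for GATA, the family to which TRPS1 belongs, AGATAA with either A or T as its first and either A or G as its last base. Each match follows in 30 bases, 5′ to 3′ on the gene's strand, with the word in capitals (the E'-box word of CRY1 and NR1D1 lies on the other strand), and no 2 matches share a base.
PER1, E-box, chr17:8152560-8152589, minus strand: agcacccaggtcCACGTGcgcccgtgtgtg
PER2, E'-box, chr2:238288790-238288819, minus strand: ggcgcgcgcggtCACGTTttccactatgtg
CRY1, E'-box, chr12:107093621-107093650, minus strand: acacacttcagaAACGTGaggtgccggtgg
NR1D1, E'-box, chr17:40100740-40100769, minus strand: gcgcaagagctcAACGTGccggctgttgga
PER3, D-box, chr1:7784103-7784132, plus strand: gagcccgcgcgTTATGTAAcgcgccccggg
CRY2, GATA, chr11:45847033-45847062, plus strand: tgacgatgttggTGATAAtaggaaggtcag

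The E-box word was in 1 of 10 members and in 6.34% of 35116 promoters, the E'-box word in 3 of 10 against 4.55%, the D-box word in 1 of 10 against 0.94%, and the GATA words in 1 of 10 against 22.3%. Neither the ROR element, found in 4.82% of promoters, nor the cAMP response element, found in 1.65%, matched a member. A match describes letters, not binding, and the absence of one says only that these letters are not in this window. CLOCK, BMAL1, NR1D2 and DBP had no match of any kind. PER3, the member that differed most between replicates, has the window printed next (chr1:7784041-7784290, plus strand, 250 bases ending at the base before its start), again with the D-box word in capitals. Its GC content was 80.0%, against a median of 58.0% over all promoters.
PER3 upstream: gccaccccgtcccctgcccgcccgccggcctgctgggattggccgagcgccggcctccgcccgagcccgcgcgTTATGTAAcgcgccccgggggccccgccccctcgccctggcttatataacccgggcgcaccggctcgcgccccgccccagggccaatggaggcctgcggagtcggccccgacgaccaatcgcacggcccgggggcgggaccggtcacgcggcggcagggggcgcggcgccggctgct

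Library totals ran from 3226718 to 9575803 counts (median 5042120), and single libraries held from 21 to 561 counts for a member. Mitochondrial genes took 1.55 to 2.09% of counts in the 6 libraries of replicate 1 and 1.04 to 1.60% in those of replicate 4. The 100 most abundant genes took 9.85 to 10.7% in replicate 1 and 8.47 to 9.35% in replicate 4. These shares differed with replicate number, and their part in the results was not tested. All 7 luminal markers passed the filter. Of 5 markers of other cell types, KRT5, KRT14 and VIM fell below the filter, while PTPRC and COL1A1 passed it. TRPS1 itself stood at 5183 to 9296 CPM (counts scaled to library size with TMM factors), but its RNA cannot check the labels because the degrader acts on the protein.

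Compared per kilobase of annotated gene, DBP had the highest level of the members, at 2.42 ± 0.609 CPM per kb (SD, n = 24 libraries). CRY2 followed at 1.56 ± 0.197, PER2 at 1.21 ± 0.181, NR1D1 at 1.01 ± 0.158, NR1D2 at 0.842 ± 0.0801 and PER1 at 0.831 ± 0.294 CPM per kb. CLOCK at 0.542 ± 0.0675, PER3 at 0.523 ± 0.115, CRY1 at 0.288 ± 0.0540 and BMAL1 at 0.267 ± 0.0337 CPM per kb were lowest. Every pair of neighbours in this order had overlapping ranges across libraries, and NR1D2 and PER1, CLOCK and PER3, and CRY1 and BMAL1 differed by less than 1 SD of the more variable gene, as did PER1 and CLOCK. The place of PER1 depended on the clone: it stood in Clone 28 at 0.916 ± 0.158 CPM per kb (SD, n = 8) and in Clone 35 at 1.07 ± 0.235, above the mean of NR1D1 in both by less than 1 SD, but at 0.508 ± 0.108 in Clone 39 it lay below CLOCK (0.608 ± 0.0577) and PER3 (0.610 ± 0.0934). Gene length ran from 7.35 kb for DBP to 119 kb for CLOCK. Without division by length, CLOCK was highest at 64.5 CPM and DBP stood at 17.8 CPM. The part of gene length in the order per kb was not tested.

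The first comparison asked whether clock genes differed between the 4 replicate numbers, taken to correspond across clones. Of the 6 members that differed, PER2, PER3, CRY1 and CRY2, all repressors of the loop, were highest in replicate 4. PER1, also a repressor, had its higher values in replicates 3 and 4, which differed from each other by 0.01 ± 0.12 (SE) on the log2 scale. CLOCK, an activator, differed the other way and was highest in replicate 1. The DMSO and dTAG-13 libraries of each clone and replicate were summed, and the 12 sums were fitted with clone and replicate number in edgeR's quasi-likelihood test, with a call at a Benjamini-Hochberg adjusted p below 0.1 over all genes. In the same test 36.9% of all genes were called, so differences between replicate numbers were widespread, and 6 of 10 members is to be read against that share. In whole cultures, fewer cells transcribing a gene and less transcription per cell cannot be told apart. The span from highest to lowest replicate had a median of 0.29 on the log2 scale over the members and 0.23 over all genes. Among all 8232 called genes, 29.5% were highest in replicate 4 and 32.5% in replicate 1, while 35.3% were lowest in replicate 1. DESeq2 called 4 of the members (PER2, PER3, CRY2 and CLOCK) and 3350 genes.

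**Figure D1:**
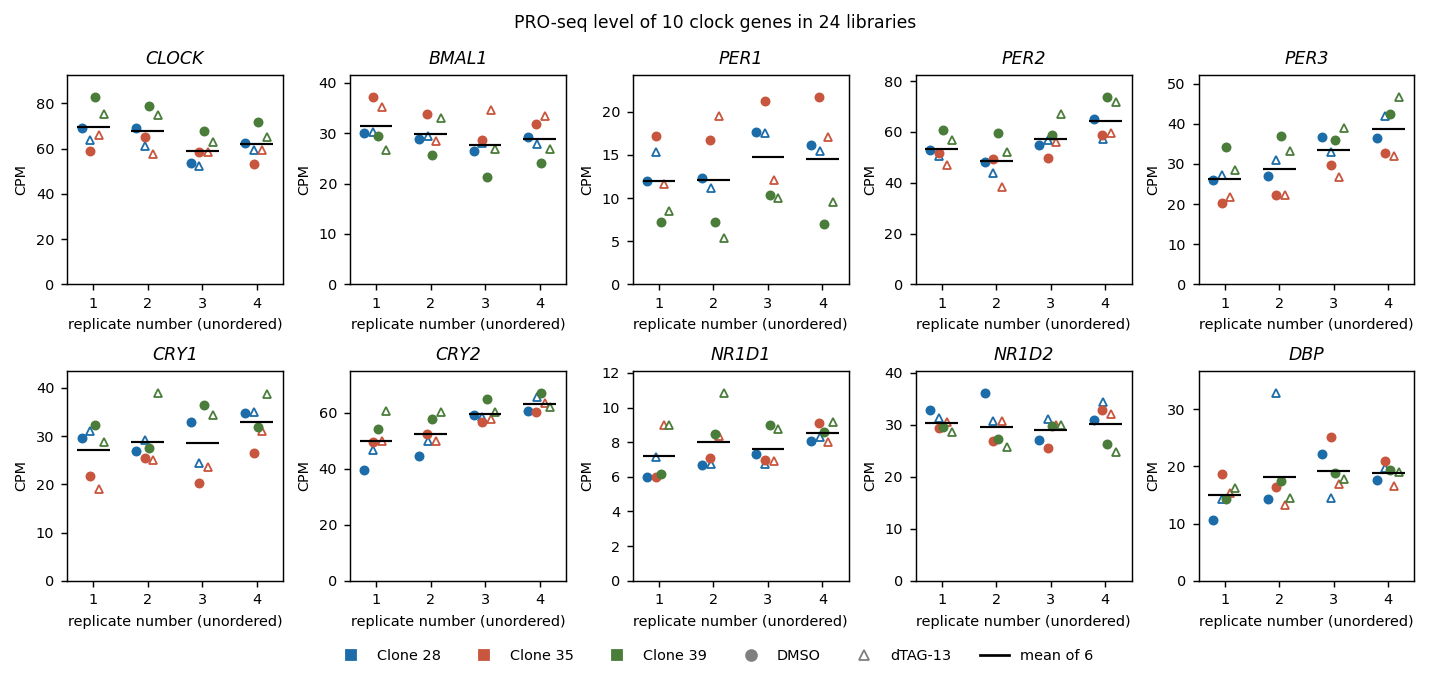
CPM of each clock gene (vertical axis, from 0) by replicate number (horizontal axis, unordered) in 24 libraries; colours are clones, filled circles DMSO, open triangles dTAG-13, and bars the mean of 6 libraries. PER2 and CRY2 have their highest library of every clone and treatment group in replicate 4, whereas NR1D2 shows no such separation.

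CLOCK encodes one partner of the activating dimer. In Clone 28 it stood at 69.1, 69.1, 53.6 and 62.3 CPM in DMSO replicates 1 to 4 and at 63.8, 61.0, 52.2 and 59.4 CPM with dTAG-13. In Clone 35 the values were 58.9, 65.1, 58.3 and 53.4 CPM in DMSO and 66.2, 57.8, 58.7 and 59.6 CPM with dTAG-13. In Clone 39 they were 82.8, 78.8, 67.8 and 71.7 CPM in DMSO and 75.5, 74.7, 62.8 and 65.2 CPM with dTAG-13. Replicate 1 was the highest in 4 of the 6 groups and replicate 3 the lowest in 4, and in Clone 28 both replicate 3 libraries lay below the other 6, which was not so in Clones 35 and 39. Replicate 3 lay 0.23 ± 0.05 (SE) below replicate 1 on the log2 scale, with an adjusted p of 7.35e-04 for the replicate number (edgeR). Of the span of CLOCK, 21.4% lies opposite TMEM165 on the other strand, and whether counting kept strands apart is not stated.

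BMAL1, the other partner of the dimer, was not called (adjusted p = 0.2501, edgeR). Its 6 libraries per replicate averaged 31.5 CPM in replicate 1 (range 26.7 to 37.2), 29.9 in replicate 2 (25.7 to 33.8), 27.7 in replicate 3 (21.3 to 34.6) and 28.9 in replicate 4 (24.2 to 33.4). Replicate 1 was highest in 5 of 6 groups, the same side as CLOCK. In the 12 DMSO libraries alone BMAL1 was called, with a span of 0.35 on the log2 scale and an adjusted p of 0.0696. Over all other settings its adjusted p reached 0.965.

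PER3, the period family member with the widest span, stood at 26.1, 27.0, 36.8 and 36.5 CPM in DMSO replicates 1 to 4 of Clone 28 and at 27.2, 31.0, 32.9 and 41.9 CPM with dTAG-13. In Clone 35 it stood at 20.3, 22.3, 29.7 and 32.8 CPM in DMSO and 21.9, 22.2, 26.7 and 32.0 CPM with dTAG-13. In Clone 39 it stood at 34.1, 37.1, 36.0 and 42.6 CPM in DMSO and 28.4, 33.2, 39.03 and 46.7 CPM with dTAG-13. Replicate 1 was the lowest in all 6 groups and replicate 4 the highest in 5, with both replicate 4 libraries above the other 6 in Clones 35 and 39. Replicate 4 exceeded replicate 1 by 0.55 ± 0.07 (SE) on the log2 scale, and the replicate number had an adjusted p of 3.88e-08 (edgeR). Leaving out any 1 of the 12 sums kept the span between 0.53 and 0.58. An antisense lncRNA nested in PER3 (ENSG00000236266, 28.1% of the gene) held 15 counts over all libraries against 3937 for PER3, so at this gene the strands were counted apart.

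PER2, which encodes a scaffold of the repressor complex, was fitted lowest in a different replicate from PER3. In Clone 28 it stood at 53.0, 48.0, 54.6 and 65.0 CPM in DMSO and at 50.4, 43.8, 56.8 and 57.1 CPM with dTAG-13. In Clone 35 the values were 51.5, 49.2, 49.8 and 58.9 CPM in DMSO and 46.95, 38.3, 55.9 and 59.7 CPM with dTAG-13. In Clone 39 they were 60.7, 59.5, 58.6 and 73.7 CPM in DMSO and 56.8, 52.0, 67.1 and 71.7 CPM with dTAG-13. Both replicate 4 libraries lay above the other 6 in each of the 3 clones, and replicate 2 was lowest in 5 of 6 groups. The distance from replicate 2 to replicate 4 was 0.41 ± 0.05 (SE) on the log2 scale, and the adjusted p for the replicate number was 1.36e-07 (edgeR). The fit thus put PER2 lowest in replicate 2 and PER3 in replicate 1, a contrast between genes that was not tested. PER2 in replicate 2 lay 0.14 ± 0.06 (SE) below replicate 1 (adjusted p = 0.0939 over genes and pairs of replicates, edgeR). PER3 in replicate 1 lay 0.12 ± 0.08 (SE) below replicate 2 and was not called apart from it (adjusted p = 0.356, same test).

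PER1, the period gene known for quick induction by outside signals, was the least certain of the called members. In Clone 28 it stood at 11.9, 12.4, 17.6 and 16.1 CPM in DMSO and 15.3, 11.2, 17.6 and 15.4 CPM with dTAG-13. In Clone 35 the values were 17.2, 16.7, 21.2 and 21.7 CPM in DMSO and 11.6, 19.5, 12.04 and 17.1 CPM with dTAG-13. In Clone 39 they were 7.18, 7.21, 10.4 and 6.99 CPM in DMSO and 8.47, 5.41, 9.99 and 9.52 CPM with dTAG-13. Replicate 3 was highest in 4 of 6 groups, whereas the fit on sums put replicate 4 highest by a small margin, 0.29 on the log2 scale above replicate 1, with an adjusted p of 0.0897 (edgeR). The call was lost in 8 of 12 fits that left out 1 sum, those of Clone 28 replicates 1, 2, 3 and 4, Clone 35 replicates 1 and 4, and Clone 39 replicates 2 and 3, with adjusted p up to 0.222. It was also lost without Clone 28 (adjusted p = 0.405), without Clone 39 (0.198), in the dTAG-13 libraries alone (0.826), in a fit of the 24 libraries (0.123) and with DESeq2 (0.487). PER1 shares 35.5% of its bases on the same strand with an unnamed protein-coding gene (ENSG00000263620, 4322 counts against 1721 for PER1), so its counts are uncertain.

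CRY2, a cryptochrome and partner of the PER proteins, stood at 39.5, 44.4, 59.4 and 60.5 CPM in DMSO replicates 1 to 4 of Clone 28 and at 46.8, 49.8, 58.3 and 65.8 CPM with dTAG-13. In Clone 35 it stood at 49.6, 52.4, 56.6 and 60.4 CPM in DMSO and 49.9, 50.0, 57.9 and 63.4 CPM with dTAG-13. In Clone 39 it stood at 54.1, 57.7, 64.8 and 66.9 CPM in DMSO and 60.5, 60.2, 60.3 and 62.2 CPM with dTAG-13. Replicate 4 was highest in all 6 groups and replicate 1 lowest in 5, and the Clone 39 dTAG-13 libraries were nearly level. Replicate 4 exceeded replicate 1 by 0.34 ± 0.06 (SE) on the log2 scale, and the adjusted p was 8.11e-06 (edgeR). Replicates 3 and 4 differed by 0.08 ± 0.05 (SE) and were not called apart.

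CRY1, the second cryptochrome, is known as a strong and late repressor of the dimer. In Clone 28 it stood at 29.6, 27.0, 32.9 and 34.8 CPM in DMSO and 31.1, 29.1, 24.5 and 34.9 CPM with dTAG-13. In Clone 35 the values were 21.7, 25.5, 20.3 and 26.5 CPM in DMSO and 19.1, 25.1, 23.5 and 31.0 CPM with dTAG-13. In Clone 39 they were 32.3, 27.5, 36.5 and 32.0 CPM in DMSO and 28.9, 38.9, 34.3 and 38.7 CPM with dTAG-13. Replicate 4 was highest in 4 of 6 groups, and in Clones 28 and 35 both its libraries lay above the other 6. Replicate 4 exceeded replicate 1 by 0.30 ± 0.08 (SE) on the log2 scale, with an adjusted p of 0.0104 (edgeR). Without Clone 35 replicate 4 the adjusted p was 0.169, without all of Clone 35 it was 0.239, and in the DMSO libraries alone the span was 0.16 with an adjusted p of 0.461, over alternatives whose smallest adjusted p was 3.67e-04.

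**Figure D2:**
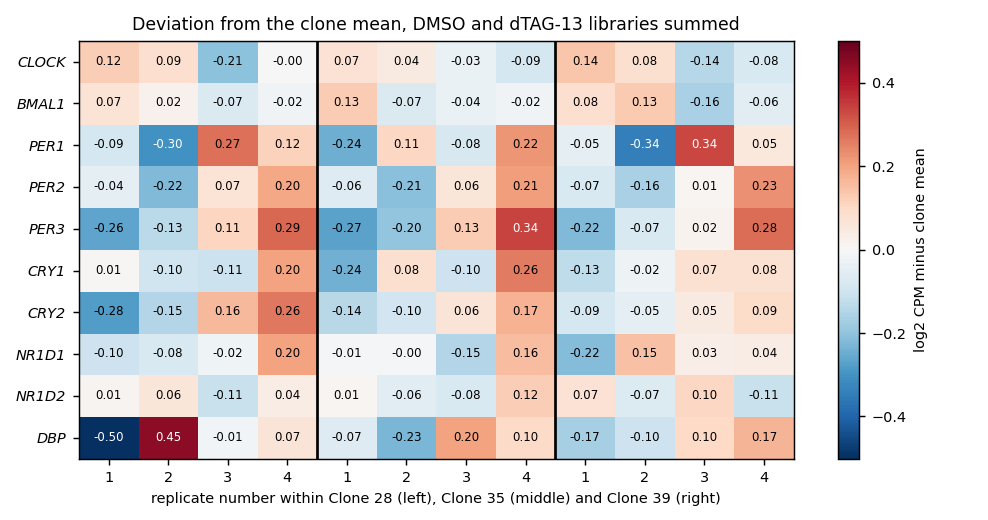
Log2 CPM of the 12 sums of DMSO and dTAG-13 libraries, each minus the mean of its clone, for 10 clock genes (rows) by replicate number within each clone (columns); red is above and blue below the clone mean. PER2, PER3, CRY1 and CRY2 are above their clone mean in replicate 4 of all 3 clones, and the DBP values of Clone 28 reach furthest from 0.

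NR1D1 and NR1D2, which encode the REV-ERB repressors of BMAL1, were not called. NR1D1 averaged 7.20 CPM in replicate 1 (range 5.96 to 8.98 over 6 libraries), 8.04 in replicate 2 (6.70 to 10.8), 7.61 in replicate 3 (6.74 to 8.99) and 8.54 in replicate 4 (8.04 to 9.15), with an adjusted p of 0.450 (edgeR). It is the least counted member, with 24 to 66 counts per library. NR1D2 averaged 30.3, 29.6, 28.9 and 30.2 CPM in replicates 1 to 4, a span of 0.08 on the log2 scale, with an adjusted p of 0.806 (edgeR). NR1D2 thus had the narrowest span of the 10 members, at 96 to 287 counts per library.

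DBP, the output factor that binds D-box DNA, had a wide span of 0.34 on the log2 scale without a call (adjusted p = 0.458, edgeR). Its Clone 28 libraries stood at 10.7, 14.2, 22.2 and 17.7 CPM in DMSO and at 14.3, 32.8, 14.4 and 19.7 CPM with dTAG-13. The value of 32.8 CPM rests on 190 counts and is the highest of all 24. In Clone 35 DBP stood at 18.6, 16.4, 25.2 and 20.9 CPM in DMSO and 15.3, 13.2, 16.8 and 16.6 CPM with dTAG-13, and in Clone 39 it ranged from 14.4 to 19.4 CPM over 8 libraries. Without the sum that holds the high library, Clone 28 replicate 2, the span was 0.35 and the adjusted p was 0.00341. DBP was also called without Clone 35 replicate 2 (adjusted p = 0.0211), with no filter on low counts (0.00485), in the DMSO libraries alone (0.00183), without Clone 28 (0.0634) and without Clone 35 (0.0788), and its adjusted p reached 0.799 over the remaining settings.

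Set side by side, 2 given replicates were called apart for 18.1% of all genes and pairs, with p-values adjusted over genes and all 6 pairs of replicates. PER2 and PER3 were each called in 5 of 6 pairs, CRY2 and CLOCK in 4, CRY1 in 3, and PER1, BMAL1, NR1D1, NR1D2 and DBP in none. PER2 in replicates 1 and 3, PER3 in replicates 1 and 2, CRY2 in replicates 3 and 4 and in 1 and 2, and CLOCK in replicates 1 and 2 and in 3 and 4 were not called apart, and neither were replicates 1, 2 and 3 from each other for CRY1.

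Within single clones, PER2 and PER3 were called in each of the 3. In Clone 28, where 11.8% of genes were called, 4 members were called: PER2 (span 0.41, adjusted p = 0.0323), PER3 (0.56, 0.00896), CRY2 (0.55, 1.25e-04) and CLOCK (0.33, 0.0399). In Clone 35, where 8.96% of genes were called, 4 were called: PER2 (span 0.43, adjusted p = 0.0211), PER3 (0.61, 0.00186), CRY1 (0.51, 0.0712) and CRY2 (0.32, 0.0493). In Clone 39, where 10.1% of genes were called, 3 were called: PER2 (span 0.38, adjusted p = 0.0431), PER3 (0.51, 0.0278) and CLOCK (0.28, 0.0892). Spans are on the log2 scale and tests are edgeR's over 24 libraries with a treatment term per clone. The spread in that fit is the one between the DMSO and dTAG-13 libraries of a replicate, after the clone's treatment effect. A call thus says that harvests of a clone differed more than libraries of the same harvest did. With replicate 4 left out, 2 members were called in Clone 28, 0 in Clone 35 and 1 in Clone 39. With replicate 1 left out, 2 were called in Clone 35 and 1 in Clone 39. Leaving out a replicate removes data for every gene. The share of all genes called in these fits was not worked out, so the falls cannot be read as particular to the members. Without replicate 2, in which it was lowest, PER2 was called in no clone (adjusted p = 0.107 to 0.354), and without replicate 3, in which it was lowest there, CLOCK was not called in Clone 28 (0.656) or Clone 39 (0.241). A test of whether the replicate effect differed between clones called 0% of genes and 0 members (edgeR, 0 members and 706 genes at an unadjusted p below 0.05, and 0 members with RLE scaling), which does not show that the clones act alike.

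The second comparison asked whether 90 minutes of dTAG-13 altered the clock genes. Across the 3 clones no member was called in either direction, while 0.551% of genes were called (123 genes, 80 higher and 43 lower). With each clone and replicate as a block, 2.33% of genes (521) and again no member were called. TRPS1, not a member, changed by 0.19 ± 0.08 (log2, SE), with an adjusted p of 0.733 without the block and 6.65e-04 with it (edgeR). No member had an unadjusted p below 0.05 in edgeR with or without the block or in DESeq2, which called 160 genes. The members' median change was 0.015 on the log2 scale, beside -0.0018 over all genes. Among the activators the fitted change was -0.06 ± 0.05 for CLOCK and 0.06 ± 0.06 for BMAL1 (log2, SE). Among the repressors it was -0.12 ± 0.11 for PER1, -0.05 ± 0.07 for PER2, 0.01 ± 0.10 for PER3, 0.05 ± 0.07 for CRY1 and 0.04 ± 0.07 for CRY2. It was 0.13 ± 0.09 for NR1D1, 0.02 ± 0.05 for NR1D2 and -0.04 ± 0.14 for DBP, so each change lay within 2 SE of 0. Of the 12 pairs of libraries, CRY2, BMAL1 and NR1D1 were higher with dTAG-13 in 8, CRY1 in 7, PER3 and NR1D2 in 6, PER1, PER2 and DBP in 4 and CLOCK in 3. The smallest member adjusted p was 0.986 without the block and 0.678 with it, which does not show that the members did not respond.

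**Figure D3:**
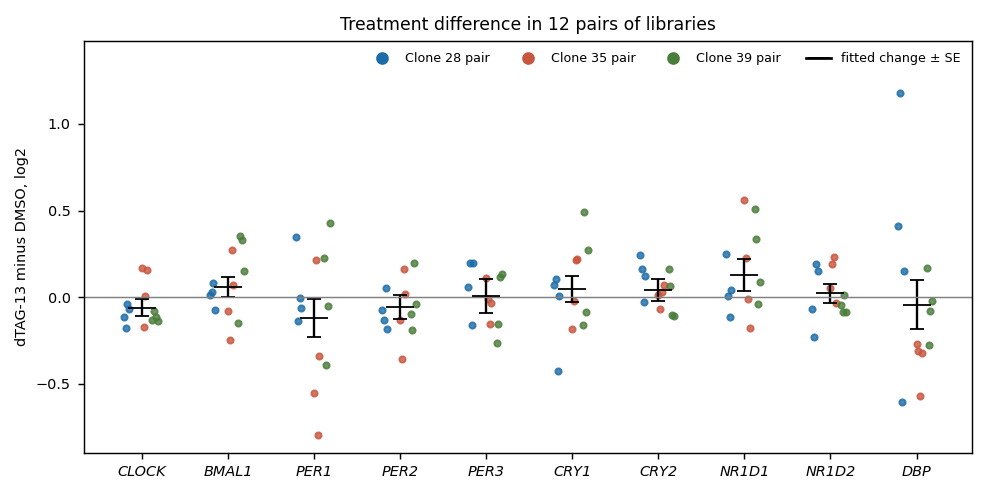
Difference between dTAG-13 and DMSO in log2 CPM (vertical axis) for the 12 pairs of libraries sharing a clone and replicate number, coloured by clone, with the fitted change and its SE in black. The fitted changes lie between -0.12 and 0.13, and the pairs of PER1 and DBP spread most.

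Taken by clone, dTAG-13 called 0.0537% of genes in Clone 28, 0% in Clone 35 and 0% in Clone 39 (edgeR, with 1078, 646 and 754 genes at an unadjusted p below 0.05), and no member in any of them. PER1 in Clone 35 was the one member with an unadjusted p below 0.05, with a change of -0.37 ± 0.17 (log2, SE) and an adjusted p of 1.00. That fit does not pair the libraries harvested together. With each clone and replicate as a block, PER1 in Clone 35 changed by -0.38, with an adjusted p of 0.530 (edgeR). Its 4 pairs there differed by -0.55, 0.21, -0.80 and -0.34. DBP in Clone 35 was lower in 4 of 4 pairs, with a fitted change of -0.38 ± 0.22, and in Clone 28 its pairs ran from -0.61 to 1.18. CLOCK was lower in 4 of 4 pairs in Clone 28 (-0.18 to -0.04) and in Clone 39 (-0.14 to -0.08), with fitted changes of -0.11 ± 0.09 and -0.12 ± 0.09 and no call, and no other member had 4 pairs of the same sign in a clone. These were 3 of 30 combinations of clone and member, and whether so many would arise by chance was not tested. The difference of the treatment effect between clones was called for 0% of genes and 0 members (edgeR, 0 members and 407 genes at an unadjusted p below 0.05). Its difference between replicates was called for 2.09% of genes and for 0 members, with 1 member, PER2, at an unadjusted p of 0.00691 and an adjusted p of 0.184. For PER2 the treatment difference was -0.10, -0.23, 0.14 and -0.06 (log2) in replicates 1 to 4.

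The third comparison set the clones against each other. Between clones 44.7% of genes were called, and 7 of 10 members: PER1, PER2, PER3, CRY1, BMAL1, CLOCK and NR1D2 (edgeR, adjusted p below 0.1, 8 libraries per clone). That fit takes the DMSO and dTAG-13 libraries of a replicate as separate although they were harvested together. On the 12 sums, a fit added after the data were seen, 36.1% of genes and 5 members were called, PER1, PER3, CRY1, BMAL1 and CLOCK, while PER2 (adjusted p = 0.11) and NR1D2 (0.137) were not. With replicate number as a term in the fit of sums, a replicate block, 53.8% of genes and 8 members were called, the 7 and CRY2. In the fit of 24 libraries the median span between clones was 0.28 on the log2 scale over all 10 members, beside 0.24 over all genes. In that fit 2 given clones were called apart for 30% of genes and pairs. PER1 differed most, at 8.14 ± 1.73 CPM (SD, n = 8) in Clone 39 against 14.7 ± 2.54 in Clone 28 and 17.1 ± 3.77 in Clone 35. All 8 Clone 39 libraries, 5.41 to 10.4 CPM, lay below the 16 others. In the fit of 24 libraries Clone 39 was lower than Clone 35 by 1.07 ± 0.14 (log2, SE, adjusted p = 1.87e-07, edgeR). On the 12 sums that distance was 1.04, and the test of the 3 clones gave PER1 an adjusted p of 8.92e-05 (edgeR). The unnamed gene that overlaps PER1 was also lowest in Clone 39, at 20.2 ± 2.23 CPM against 38.3 ± 2.92 and 41.8 ± 4.82 in Clones 28 and 35, and its part in the PER1 result was not tested.

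Other members ordered the clones differently. CLOCK was highest in Clone 39, at 72.4 ± 6.86 CPM (SD, n = 8), against 61.3 ± 6.27 in Clone 28 and 59.7 ± 4.13 in Clone 35. BMAL1 was highest in Clone 35, at 32.9 ± 3.09 CPM, against 28.8 ± 1.29 in Clone 28 and 26.8 ± 3.47 in Clone 39. PER3 and CRY1 were lowest in Clone 35, at 25.98 ± 4.98 and 24.1 ± 3.83 CPM, and stood at 37.1 ± 5.69 and 33.6 ± 4.24 CPM in Clone 39. PER2 was higher in Clone 39 (62.5 ± 7.58 CPM) than in Clone 28 (53.6 ± 6.46) and Clone 35 (51.3 ± 7.01), and NR1D2 was higher in Clone 28 (31.8 ± 2.68 CPM) than in Clone 39 (27.8 ± 1.98). The ranges of PER2, PER3, CRY1, BMAL1, CLOCK and NR1D2 overlapped between clones. In the fit of 24 libraries CRY2 (adjusted p = 0.135), NR1D1 (0.119) and DBP (0.894) were not called (edgeR). CRY2 was called with replicate number as a term shared across clones, a replicate block (0.00152).

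**Figure D4:**
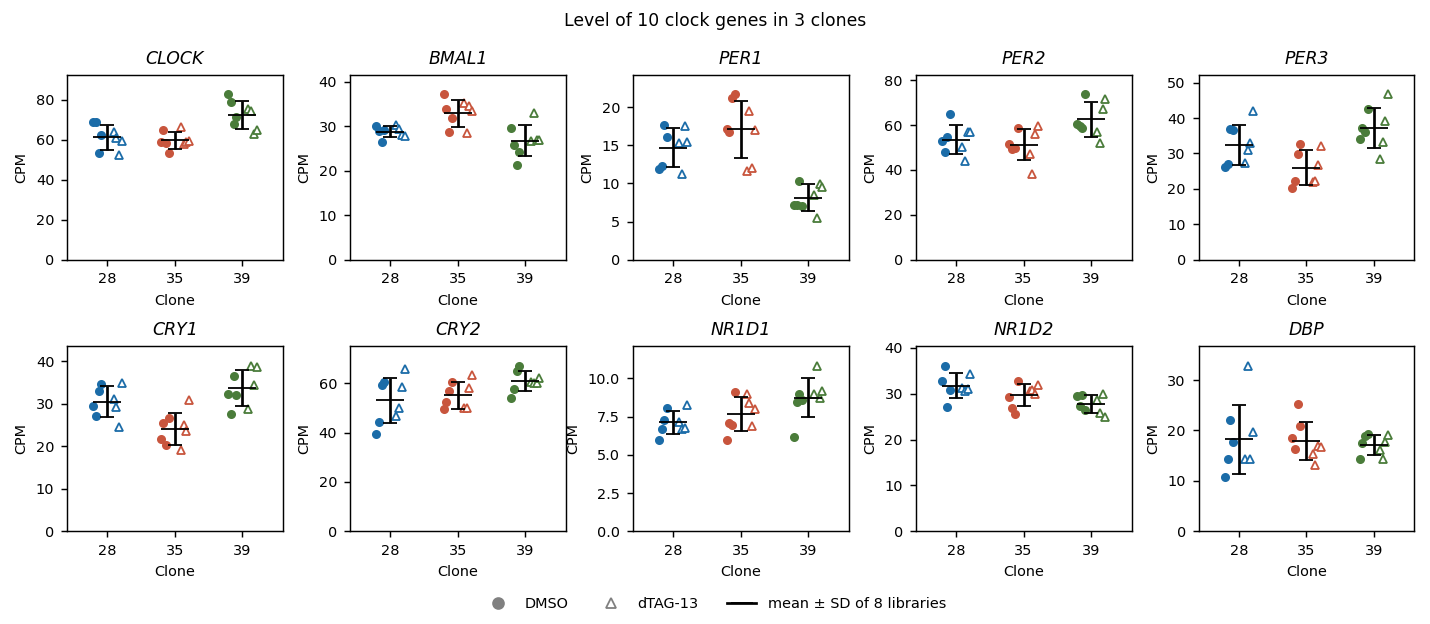
CPM of each clock gene (vertical axis, from 0) in Clones 28, 35 and 39, with 8 libraries per clone (filled circles DMSO, open triangles dTAG-13) and the mean ± SD. PER1 in Clone 39 lies below every library of the other clones, whereas the clone means of DBP lie between 17.2 and 18.2.

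Genes around the core loop showed mixed patterns between replicates, and the counts of each list are to be read against the 36.9% of all genes called. Of 12 loop partners, 11 passed the filter and BHLHE41 did not, and 4 (36.4% of those tested) were called: TEF, a relative of DBP (span 0.45 on the log2 scale, adjusted p = 2.12e-05), TIMELESS (0.29, 2.39e-05), BHLHE40, a repressor at E-boxes (0.25, 0.00956), and CIPC, an inhibitor of CLOCK (0.24, 0.00348). TEF and TIMELESS were highest in replicate 3 and CIPC in replicate 4, all with replicate 1 lowest, while BHLHE40 was highest in replicate 1. NPAS2, RORA, RORB, BMAL2, CIART, NFIL3 and HLF were not called. The list's median span was 0.28. Of 9 kinases, phosphatase subunits and ligases that act on PER and CRY proteins, 5 (55.6%) were called, led by PPP1CA (0.25, 0.00191), CSNK1E, a kinase of PER proteins (0.18, 0.0326), and BTRC, a ligase subunit for PER proteins (0.18, 0.00197), and the median span was 0.13. Of 7 tested output genes 4 (57.1%) were called, with ALAS1 (0.24, 0.00534), USP2 (0.23, 0.0835) and WEE1 (0.21, 9.73e-04) widest, and the median span was 0.23. These p-values are edgeR's, adjusted over all genes.

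Among 10 genes that serum, growth factors or glucocorticoids induce, 3 were called (30%, against 36.9% of all genes). EGR1 (span 0.45 on the log2 scale, adjusted p = 0.0896, edgeR) and FOS (0.32, 0.00906) were highest in replicate 1, and FKBP5, a glucocorticoid target (0.14, 0.00495), was highest in replicate 4. The list's median span was 0.17. Of the 7 luminal markers 6 were called (85.7%, against 36.9% of all genes). All 6 were lowest in replicate 4, as were 26.2% of all called genes. PGR (0.39, 0.00253), ESR1 (0.30, 3.97e-06) and KRT18 (0.27, 1.20e-05) were widest, and the median span was 0.20. The 7 markers averaged 106 (KRT18) to 1599 CPM (ESR1), and the share called among genes of such levels was not worked out. The most abundant genes took a smaller share of counts in replicate 4 (8.47 to 9.35%) than in replicate 1 (9.85 to 10.7%). The part of that shift in the marker calls was not tested. The 2 tested markers of other cell types, PTPRC and COL1A1, were not called. With dTAG-13, 1 gene of these lists was called in the fit without the block: KRT19 was lower by a log2 change of -0.13 ± 0.03 (SE, adjusted p = 0.0346, edgeR). FKBP5 at -0.08 ± 0.03 had an adjusted p of 0.563, and 0.0533 with the replicate block.

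**Figure D5:**
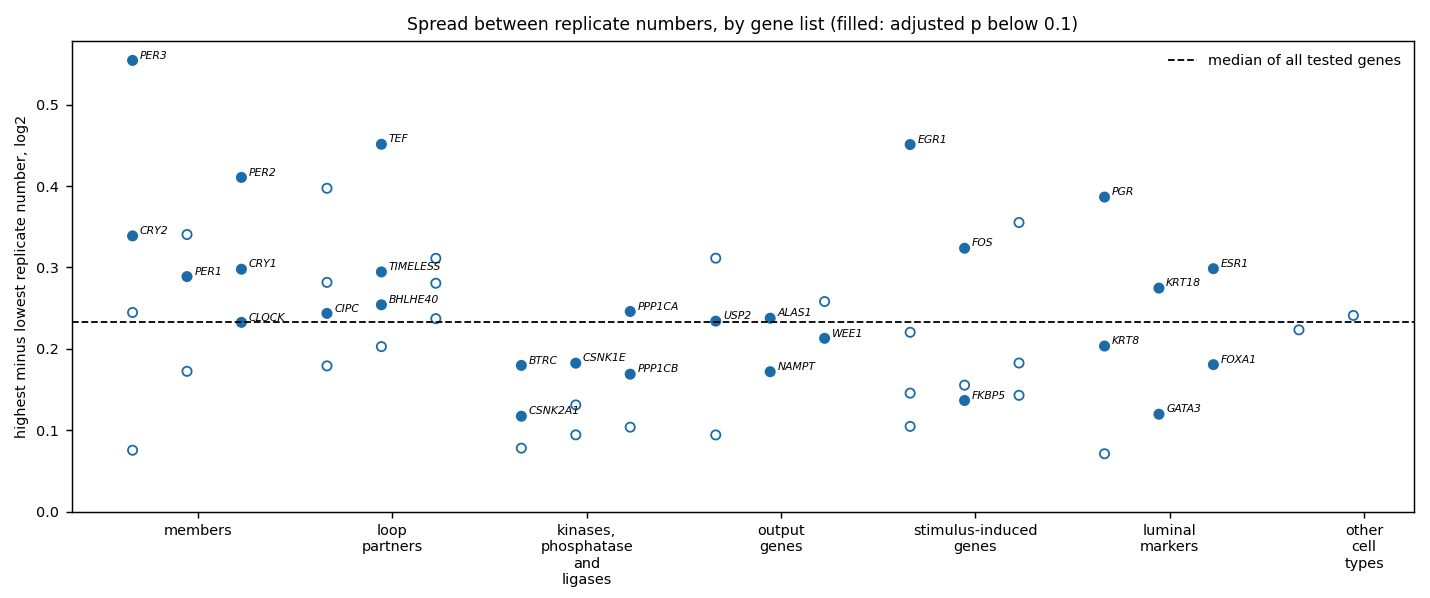
Log2 span from the highest to the lowest replicate number (vertical axis) for the tested genes of each list (columns), filled and named where the adjusted p was below 0.1, with the median over all genes dashed. PER3 has the widest span of the genes shown, and the kinases, phosphatase subunits and ligases lie mostly below the dashed line.

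The genes whose course over the 24 libraries was most like that of the 3 members with the widest spans were sought among 11722 others with a mean of at least 100 counts, by the root mean square difference of log2 CPM after centring each group. For PER3 these were ANLN, an actin-binding protein of dividing cells (difference 0.0853), C21orf58 (0.0874) and LMNB2, a nuclear lamin (0.0902). All were highest in replicate 4 and lowest in replicate 1, as PER3 was, which largely follows from the choice by likeness. For PER2 they were LONP1, a mitochondrial protease (0.0869), USP22, a deubiquitinase (0.0934), and ANKLE2 (0.0936). For DBP they were IRF3 (0.196), UAP1L1 (0.197) and MPP2 (0.206), which lay farther off. For scale, PER3 itself varied by 0.229, PER2 by 0.169 and DBP by 0.285 about its group means.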

How the data were processed

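Per the study's methods, the authors cut adapters with cutadapt, collapsed duplicates by the molecular identifier, set aside ribosomal DNA reads and aligned what was left with Bowtie2, then used bedtools for gene counts. The submitters' processing notes name cutadapt 1.8.1, Bowtie2 2.4.4, SAMtools 1.9 and build hg38. The gene annotation and strand setting are not given in the sources used here. The deposited counts are whole, unnormalized reads per gene, and 7268 of 60605 genes had none. Gene symbols came from GENCODE v44 through their Ensembl identifiers.

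Counts were analysed here in R 4.3.3 with edgeR 4.0.16 (filterByExpr with a minimum count of 10, TMM scaling, robust quasi-likelihood F tests, Benjamini-Hochberg adjustment over 22326 genes, calls at 0.1). DESeq2 1.42.0 served as an alternative. Log2 CPM used a prior count of 2. Collection number was tested on 12 sums (6 residual degrees of freedom), treatment and clone on 24 libraries. In a single clone the fit had 9 residual degrees of freedom shared over clones. Replicate pairs within a group differed by more than counting error (chi-square 1.65 to 13.6 per degree of freedom over 36 pairs). The labels state that the dishes of both treatments were collected together, which pairs same-numbered libraries of a clone, and their deviations from group means correlated at 0.185 on average (0.0926 to 0.318, 12 pairs). Genes named were all members, up to 3 called genes per list with the widest spans or changes (all called loop partners are named; 1 listed gene is not reported here), and the 3 nearest genes for 3 members. The members and lists were chosen with earlier results of these data known. Counts have molecular identifiers, and their precision is limited by the depths given above.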

Additional observations from a re-analysis of the deposited data

Results flagged for a closer look

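In 5 of 60 groups of 4 libraries, 1 library stood apart from the other 3 by Dixon's criterion, where chance gives about 3. PER1 in Clone 39 DMSO was 10.4 CPM in replicate 3 and 6.99 to 7.21 in the others. PER2 in the same group was 73.7 CPM in replicate 4 and 58.6 to 60.7 in the others. CRY2 in Clone 39 dTAG-13 was 62.2 CPM in replicate 4 and 60.2 to 60.5 in the others, a gap that is wide only against their narrow spread. BMAL1 in Clone 39 dTAG-13 was 33.0 CPM in replicate 2 and 26.7 to 26.9 in the others. NR1D2 in Clone 28 dTAG-13 was 34.3 CPM in replicate 4 and 30.7 to 31.3 in the others.

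The effect of dTAG-13 differed between replicates for 4 genes of the compared lists and for no clock gene (edgeR, adjusted over all genes). Over all genes 2.09% were called in this test, so the absence of a clock gene says little about them. NR4A1, a stimulus-induced receptor, had an adjusted p of 2.68e-04, with log2 differences of 0.29, 0.21, -0.31 and -0.20 in replicates 1 to 4. FOXA1 had 1.32e-04, with -0.12, -0.28, 0.17 and 0.10. ESR1 had 2.51e-04, with 0.01, -0.03, 0.18 and 0.09. GATA3 had 0.00915, with -0.12, -0.12, 0.06 and -0.01.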

How the results depend on the processing

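Of 24 alternatives to the test of replicate number, PER2, PER3, CRY2 and CLOCK kept their direction and call in all, and 4 to 7 members were called. The number of genes called was 8232 as reported, 4332 in the dTAG-13 libraries alone, 5163 without Clone 28 and 3350 with DESeq2, and 6976 to 8201 when 1 sum was left out. PER1 lost its call in 8 of the 12 fits that left out 1 sum and in 6 of the 12 other alternatives, a threshold of 0.05 among them. Leaving out 1 replicate number gave 2 to 4 called members in Clone 28, 0 to 4 in Clone 35 and 1 to 2 in Clone 39. The share of all genes called in those fits was not worked out. With the replicate block, 521 genes and 0 members responded to dTAG-13, and the block changed no member's treatment call. The 123 genes called for treatment became 64 at a threshold of 0.05, 197 with no filter, 1 without Clone 28, 41 without Clone 35 and 47 without Clone 39, and 66 to 151 when 1 library was left out, with the fewest (66 to 80) without Clone 28 DMSO replicates 3 and 4 and dTAG-13 replicates 1 and 2. Uncalled changes with dTAG-13 turned sign for PER3 without Clone 28 (-0.026), and without Clone 35 for PER1 (0.055), NR1D2 (-0.022) and DBP (0.15). With 1 library left out, PER3 ran from -0.036 to 0.047 and DBP from -0.17 to 0.019. The causes were not tested. In a check added after the data were seen, 40.1% of the 10920 genes with a mean CPM between those of NR1D1 and CLOCK were called between replicates. Depth limits NR1D1 and PER1 most, with 24 to 66 and 21 to 157 counts per library.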
